A study of Mus musculus with 5 samples.

Results

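The cells described here are the non-cycling monocytes low in azurophil genes among marrow cells sorted as CD11b+Ly6Chi, called azurophil-low monocytes below. They were chosen by their own transcripts. A cell counted as a member if it held at most 1 UMI of the proliferation genes Mki67 and Top2a together, and if the azurophil granule genes Mpo, Elane, Prtn3 and Ctsg made up less than 0.1% of its UMIs. It also had to hold less than 1% of UMIs from the specific granule genes Ngp, Camp and Ltf, and fewer than 10 UMIs of the class II genes H2-Aa, H2-Ab1 and H2-Eb1. A UMI is a molecular tag that counts one captured transcript. Cells with fewer than 200 genes, or with 20% or more of UMIs from mitochondrially encoded genes, were removed first. The rule left 2511 members of 4455 kept sorted cells and of 25975 kept cells in all 5 libraries, 1147 from the naive sort and 1364 from the CTX sort.

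Ly6Chi monocytes form in the marrow from dividing progenitors. Azurophil granule proteins, such as myeloperoxidase and neutrophil elastase, are made at the earliest stages and are switched off as cells mature. Late marrow monocytes take up Cx3cr1, the fractalkine receptor, together with Apoe, an apolipoprotein of lipid transport, and the chemokine Ccl6. NF-kB is a transcription factor held in the cytoplasm by the inhibitor encoded by Nfkbia. When it is released it drives genes for chemokines and cytokines, and also its own brakes, Nfkbia and Tnfaip3.

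The study profiled BALB/c marrow by droplet 3′ scRNA-seq after CTX (cyclophosphamide), an alkylating chemotherapy drug. Naive_BM_sorted held CD11b+Ly6Chi cells from untreated mice, and CTX_BM_sorted held cells of the same gate from mice given 150 mg/kg CTX i.p., with no day in its labels. Whole marrow came from naive mice and from mice at day 2 and day 7 after 150 mg/kg CTX (D2 CTX and D7 CTX). Cells of 3 mice per condition were pooled according to a protocol text that all 5 samples share, which does not say whether the sorts were pooled alike. None of the 5 groups carried a genetic change in the labels. Each condition was 1 library, so no test between conditions was possible and no p-value is given. All intervals are exact 95% intervals that cover counting error only, and not the variation between mice or sorts.

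The naive sort held 2223 barcodes and 22694817 UMIs, and the CTX sort held 2978 barcodes and 29139672 UMIs. Removal took 332 naive and 414 CTX barcodes, every one for its mitochondrial share. The 2 sorted libraries shared 2 barcodes, and no barcode belonged to a member in both. Members had a median of 9146 UMIs and 2713 genes in the naive sort and 8490.5 UMIs and 2616 genes in the CTX sort. Single members ranged from 520 to 36034 UMIs in the naive sort and from 505 to 24679 in the CTX sort.

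One library stood apart, and this bears on every comparison between the sorts. The 27 genes of a list of NF-kB targets summed to 6377 CPM (UMIs per 1000000 UMIs of the cells) in naive sorted members against 2465 CPM in CTX sorted members. Like cells of whole marrow, defined below, held 1739.7 CPM in the naive library, and 2307 and 1789 CPM at D2 CTX and D7 CTX. The naive sorted library was thus the one high library of 5 for these genes, and values from whole marrow, which leave it out, are given beside the main results that rest on it. Treatment and library cannot be told apart in the sorted pair.

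The members lay close to their limits in part. No azurophil UMI was found in 476 naive members (41.5%) and in 452 CTX members (33.1%). Another 85 naive and 149 CTX members lay just inside the azurophil limit, from 0.05% to under 0.1% of UMIs, and 79 naive and 145 CTX cells lay just outside it, from 0.1% to under 0.15%. On the proliferation limit, 129 naive and 200 CTX members held the single permitted UMI of Mki67 or Top2a, while 56 naive and 57 CTX cells missed by 1 UMI alone. The class II limit touched few cells, since 1109 naive and 1330 CTX members held no UMI of the 3 class II genes. In the same way, 1093 naive and 1134 CTX members held no UMI of Ngp, Camp or Ltf.

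Members made up 60.7% (58.4 to 62.9) of kept cells in the naive sort and 53.2% (51.2 to 55.1) in the CTX sort. The log2 ratio of the shares, CTX over naive, was -0.19 (-0.30 to -0.07), lower than 0 by more than counting error. These shares come from the limits that chose the members, so they are given as a description. Cells low in azurophil genes but cycling took nearly equal shares of the sorts, 19.1% and 19.5%. Cells with azurophil genes from 0.1% to under 1% of UMIs took the larger share in the CTX sort, 20.7% against 15.8%. Cells at or above 1%, the least mature by this measure, took 3.9% of the CTX sort and 1.85% of the naive sort. The remaining classes were small in both sorts, and the class II-rich cells were the ones with a larger share in the naive sort, 1.48% against 0.351%.

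**Figure D1:**
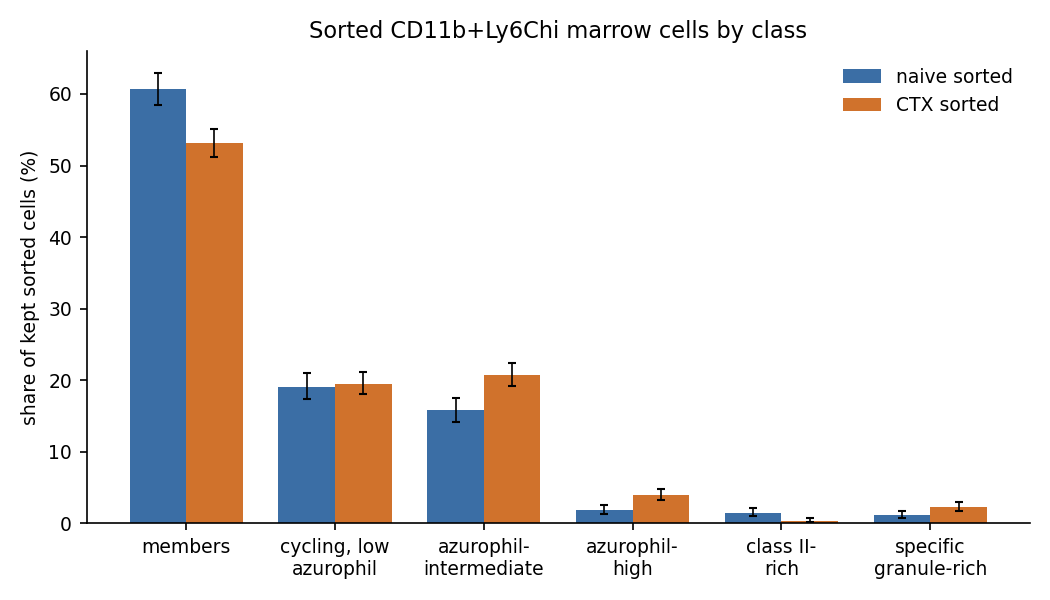
Share of kept sorted cells (y axis, percent) in each class (x axis) for the naive sort (blue) and the CTX sort (orange), 1 library each, with bars from 0 and exact 95% binomial intervals as error lines. Members took 60.7% of the naive and 53.2% of the CTX sort, and the azurophil-intermediate class took 15.8% and 20.7%.

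The monocyte label held against its markers. Ccr2, the chemokine receptor by which monocytes leave the marrow, was at 1379 CPM in naive and 1380.4 CPM in CTX members. After each cell was thinned to 3000 UMIs, which left out 73 naive and 80 CTX members, Ccr2 was seen in 96.6% and 96% of members. Csf1r, the M-CSF receptor, was at 211 and 201 CPM and was seen in 46.6% and 43.1% of thinned members. In specific granule-rich cells, which should lack both, Ccr2 was seen in 0 of 19 naive cells and 7.84% of 51 CTX cells, and Csf1r in 0 of 19 and 5.88%. Ly6c2, part of the antigen used for the sort, was at 778 and 726 CPM. The 9 markers of the non-classical monocyte were mixed, with a sum of 520.2 CPM in naive and 465 CPM in CTX members. Nr4a1 stood at 179 and 93.3 CPM, Pou2f2 at 154 and 193 CPM, Itgal at 82.1 and 83.4 CPM and Ear2 at 54.9 and 45.1 CPM. Treml4 was low at 5.72 and 3.35 CPM, as was Ace at 3.88 and 6.08 CPM, and Cd36 and Eno3 were under 5 CPM in both sorts.

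Markers of other cell types were near 0 for most types. The T and NK cell list summed to 0.776 CPM in naive and 1.5 CPM in CTX members, with Cd3e, Trbc2 and Ncr1 at 0 in both. The erythroid list of 6 genes summed to 0.873 and 0.44 CPM, with Hbb-bt and Alas2 at 0. The macrophage list summed to 4.95 and 2.73 CPM, with the complement genes C1qa, C1qb and C1qc at 0. Neutrophil markers were present at a low level: the 6 genes summed to 374 and 409 CPM, of which Mmp8 gave 166 and 179 CPM, and Ly6g, the defining surface antigen of neutrophils, 2.81 and 4.23 CPM. Plasma cell genes were the exception, at 2757 CPM in naive and 186 CPM in CTX members, and are described below with the genes that differed between the sorts.

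The 3 markers of the cells, Cx3cr1, Apoe and Ccl6, were present at all levels from none to many UMIs per cell. Cx3cr1 (chromosome 9, 119901616 to 120069879, minus strand, GRCm38) stood at 102 CPM (96.1 to 108) in naive and 93.2 CPM (87.6 to 99) in CTX members. It was seen in 25.1% (22.6 to 27.8) of thinned naive and 21.5% (19.3 to 23.8) of thinned CTX members. Among azurophil-high cells, which should lack it, 5.88% of 34 naive and 3.03% of 99 CTX cells held a Cx3cr1 UMI at the same depth. The receptor was thus found above the background share in both sorts. CTX over naive was -0.13 (-0.26 to -0.01), and in like cells of whole marrow, defined below, Cx3cr1 was also lower at D7 CTX (155 CPM) than in naive mice (202 CPM), by -0.38 (-0.65 to -0.12).

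Apoe (chromosome 7, 19696109 to 19699188, minus strand) stood at 1155 CPM (1135 to 1176) in naive and 815 CPM (798 to 831) in CTX members. It was seen in 51.5% of naive and 45% of CTX members at 3000 UMIs, against 0 of 34 naive and 3.03% of 99 CTX azurophil-high cells. Its 90th percentile was 13 UMIs in naive and 9 UMIs in CTX members at that depth. The highest thinned cell held 71 UMIs in the naive and 47 in the CTX sort, so the gene varied widely from cell to cell within each sort. Ccl6 (chromosome 11, 83587882 to 83593087, minus strand) was the most even of the 3, seen in 87.4% of naive and 79.2% of CTX members. It stood at 943 CPM (925 to 962) and 730.3 CPM (715 to 746). Azurophil-high cells showed Ccl6 in 5.88% and 7.07% of cells. Apoe and Ccl6 were lower in the CTX sort by -0.50 (-0.54 to -0.46) and -0.37 (-0.41 to -0.33) on the log2 scale, and neither passed 1 log2 unit.

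In whole marrow, like cells were taken with the same 4 limits plus at least 3 UMIs of Ly6c2, at least 1 of Csf1r and at most 1 UMI of Cd79a, Cd79b, Cd3e and Siglech together. Naive marrow gave 168 such cells, D2 CTX marrow 46 and D7 CTX marrow 262, at a median of 6013, 5968 and 6720.5 UMIs. There Apoe was at 1198, 2077 and 1584 CPM, so that D7 CTX was higher than naive by 0.40 (0.31 to 0.50), against the sorted direction. Ccl6 was at 1164, 1305 and 945 CPM and was lower in D7 CTX, by -0.30 (-0.41 to -0.19), as it was in the sort. Neutrophil and erythroid transcripts were higher in these like cells than in sorted members. The neutrophil list summed to 1857, 8963 and 5299 CPM, and the erythroid list to 8069 CPM in naive against 59.9 and 23.5 CPM after CTX. The part of these transcripts in the whole marrow values was not tested.

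Set beside the other kept sorted cells, members differed in 2 groups of genes, which are described without a test because the rule separated the cells. Of 5605 genes compared in both sorts, 198 (3.53%) were at least 1 log2 unit higher in members in both and 466 (8.31%) at least 1 lower in both. Among the highest, apart from Apoe itself, were Rtp4 and Slfn5, both induced by interferon, Socs3, a feedback inhibitor of cytokine signalling, Neurl3, an E3 ubiquitin ligase, and Pla2g7, which degrades platelet-activating factor. Slfn5 was at 238 CPM in naive members against 31.3 CPM in other naive cells, and at 196 against 21.1 CPM in the CTX sort. Pla2g7 was at 131 against 17.2 CPM and at 110.0 against 16.2 CPM. These genes came out with nearly the same ratio in both sorts. They were ranked by the lower of their ratios in the sorts, so this likeness was in part set by the choice. The other sorted cells were mostly cycling and azurophil-intermediate cells, and the 28 class II-rich cells of the naive sort, outside the members, stood as high or higher for several: Apoe was at 4990.1 CPM there, Socs3 at 205 against 94.3 CPM in members, Rtp4 at 108 against 50.7 CPM and Slfn5 at 261 CPM.

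The lowest genes in members were those of mitosis and DNA replication that the rule did not name. The 10 lowest were all cell cycle genes, led by Kif11, a spindle motor, Cdk1, the mitotic kinase, and Prc1, Nusap1 and Ccna2. Cdk1 was at 1.84 CPM in naive members against 186 CPM in other naive cells, and at 2.03 against 195 CPM in the CTX sort. All 25 genes compared of the G2/M list were lower by at least 1 log2 unit in both sorts, as were 25 of 26 of the S phase list. Over all genes compared the share was 8.31%. A remainder was left: the S phase list summed to 396 CPM in naive and 401 CPM in CTX members, against 2167 and 2323 CPM in cycling low-azurophil cells.

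The gradient of monocyte lists ran the same way in both sorts. The late maturation list of 14 genes summed to 12419 CPM in naive members, 9064 in cycling low-azurophil cells, 6086 in azurophil-intermediate cells and 2583 CPM in azurophil-high cells. In the CTX sort the same order gave 11923, 8977, 6239.9 and 2279 CPM. Interferon-stimulated genes followed it, at 11347, 7228, 4752 and 2129 CPM in naive and 9214, 6200.2, 4309 and 2197 CPM in CTX cells. Of the 29 interferon-stimulated genes compared, 18 were at least 1 log2 unit higher in members than in other sorted cells in both sorts. Over all 5605 genes compared, 198 (3.53%) were that much higher in both. Oxidative phosphorylation ran the other way, from 21319 CPM in naive members to 30899 CPM in naive azurophil-high cells, with none of its 73 genes past 1 log2 unit.

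The main comparison asked how azurophil-low monocytes of CTX-treated mice differed from those of naive mice. Levels were nearly the same for most genes. A gene was compared if it had at least 200 UMIs over both sorts and at least 20 CPM in 1 of them, which kept 5373 genes. Of these, 96.1% lay within 0.5 log2 unit of 0, with a median log2 ratio of 0.04 and a 5th to 95th percentile range of -0.36 to 0.31. Ratios were taken on log2(CPM + 1), a scale that understates the change of low genes, while any interval beside a ratio belongs to the ratio of the counts. At least 1 log2 unit was reached by 2 genes upward (0.0372%) and by 45 genes downward (0.838%), and all 45 were lower by more than counting error.

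**Figure D2:**
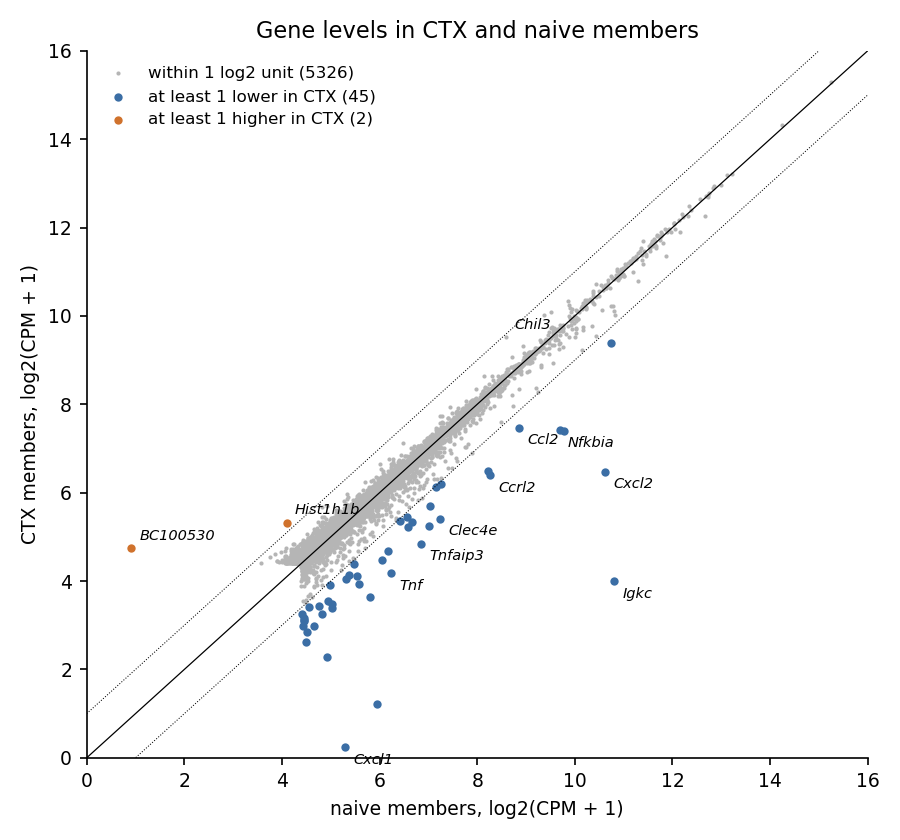
Level of each of 5373 genes in naive members (x axis) and CTX members (y axis), both as log2(CPM + 1), with dotted lines at 1 log2 unit. The 45 genes below the lower line (blue) include Cxcl2 and Tnf, and the 2 above the upper line (orange) are BC100530 and Hist1h1b.

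NF-kB targets and chemokines were prominent among the lower genes. Of 23 NF-kB targets compared, 9 were at least 1 log2 unit lower in CTX members and none higher, against a background of 0.838%, and the list's median log2 ratio was -0.92 against 0.04 over all genes. The 9 were Cxcl2, Nfkbia, Tnf, Tnfaip3, Ccrl2, Ier3, Nfkbiz, Il1b and Gadd45b. In all, 21 of the 23 lay below 0. The chemokine list shares 3 compared genes with it, and 3 of its 8 were lower by at least 1 log2 unit: Cxcl1, Cxcl2 and Ccl2.

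Cxcl2, a ligand of CXCR2 that draws neutrophils, was at 1562 CPM (1538 to 1586) in naive members and 87.8 CPM (82.4 to 93.4) in CTX members. The log2 ratio was -4.14. At 3000 UMIs a cell, Cxcl2 was seen in 70.5% of naive and 11.2% of CTX members. At that depth azurophil-high cells showed it in 8.82% of 34 naive cells and in 0 of 99 CTX cells (interval 0 to 3.66%). Specific granule-rich cells showed it in 21.1% of 19 naive and 15.7% of 51 CTX cells, so the share in CTX members lay above the first class and not above the second. The related Cxcl1 had 394 UMIs in 122 naive members and 2 UMIs in 1 CTX member, a log2 ratio of counts of -7.76 (-10.81 to -5.90). Ccl2, the ligand of CCR2, was at 465 and 176 CPM, a log2 ratio of -1.40 (-1.48 to -1.33). Ccl3, a chemokine of the CC family, was at 1135 and 601 CPM, lower by -0.92 (-0.96 to -0.87) and so short of 1 log2 unit. In like cells of whole marrow Ccl3 went the other way, higher at D7 CTX (359 CPM) than in naive mice (201 CPM), and Ccl2 was at 78.3 and 55.6 CPM.

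Nfkbia, which encodes the inhibitor of NF-kB, was at 824 CPM (806 to 841) in naive and 169 CPM (161 to 176) in CTX members, a log2 ratio of -2.28. At 3000 UMIs, 83.2% of naive and 38.8% of CTX members held an Nfkbia UMI, against 38.2% and 19.2% of azurophil-high cells and 57.9% and 37.3% of specific granule-rich cells. The share in CTX members (36.1 to 41.5) lay above that of CTX azurophil-high cells (12 to 28.3) and within the interval of CTX specific granule-rich cells (24.1 to 51.9). Tnfaip3, a deubiquitinase that ends NF-kB signalling, was at 115 and 27.7 CPM with a log2 ratio of -2.02. Tnf was at 73.8 and 17.2 CPM with a log2 ratio of -2.04. Nfkbiz, an inducible nuclear cofactor of NF-kB, was at 298 and 88.3 CPM, lower by -1.74. Ccrl2, an atypical receptor that binds chemerin, was at 306 and 83.1 CPM with a log2 ratio of -1.87.

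The summed NF-kB UMIs of single cells differed across the whole distribution. At 3000 UMIs, naive members held a median of 17 UMIs of the list, with 8 at the 10th and 34 at the 90th percentile. CTX members held a median of 7, with 3 and 13 at the same percentiles. In all, 4.83% of CTX members reached the naive median, which 53.3% of naive members reached, and 9.31% of naive members were at or below the CTX median. The 2 distributions overlapped, and the CTX values were lower at the 10th percentile, the median and the 90th percentile alike.

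**Figure D3:**
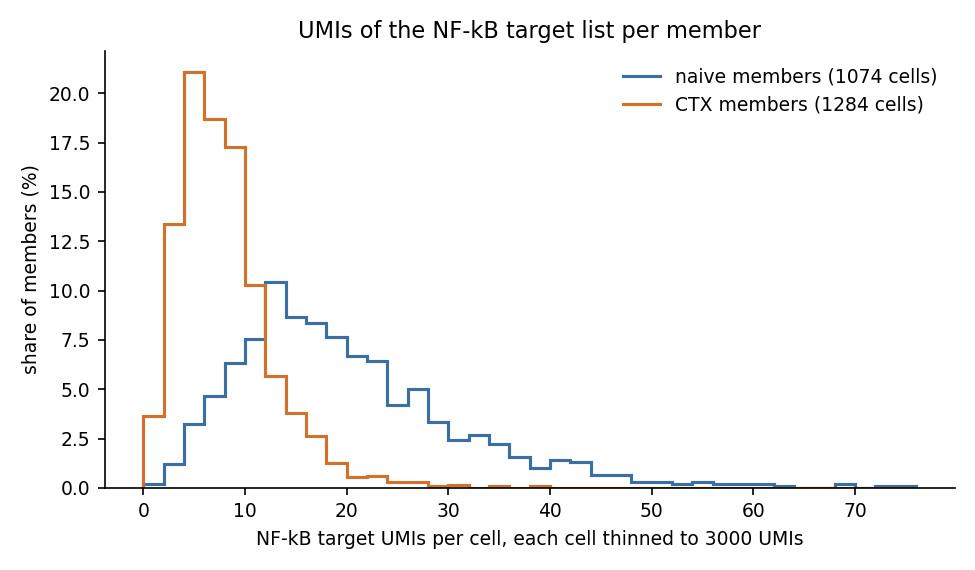
Distribution over members of the UMIs of the NF-kB target list (x axis, each cell thinned to 3000 UMIs, steps of 2 UMIs) as a share of members (y axis, percent), for 1074 naive and 1284 CTX members. The medians are 17 UMIs in naive and 7 UMIs in CTX members.

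Other classes of the sorts showed the same direction. Nfkbia was lower in the CTX sort by -2.28 in members, -2.03 in cycling low-azurophil cells, -2.13 in azurophil-intermediate cells and -1.59 in azurophil-high cells. Cxcl2 was lower by -4.14, -4.11, -4.10 and -5.24 in the same order. Tnfaip3 was lower by -2.02, -2.09, -1.60 and -0.57, and Ccrl2 by -1.87, -1.75, -1.53 and -0.68. Both ratios were nearer to 0 in azurophil-high cells, but these were only 35 naive and 100 CTX cells. There Tnfaip3 was at 13.5 and 8.74 CPM and Ccrl2 at 8.08 and 4.66 CPM, under the 20 CPM asked of a gene compared. The pseudocount pulls such low ratios toward 0, so no difference between classes is read from them. Cxcl2 was likewise at only 1.17 CPM in CTX azurophil-high cells. The median of the NF-kB list was -0.92, -0.82, -1.02 and -1.05, over 23, 19, 17 and 5 genes compared. All 4 classes came from the same 2 libraries, and the differences between classes were not tested.

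Like cells of whole marrow did not show a difference of this size for Nfkbia, Cxcl2 or Tnfaip3. Nfkbia stood at 158, 186 and 137 CPM in naive, D2 CTX and D7 CTX like cells, and D7 CTX over naive was -0.20 (-0.49 to 0.09). Cxcl2 was at 96.8, 236 and 89.8 CPM, with a log2 ratio of -0.11 (-0.48 to 0.26) at D7 CTX. Tnfaip3 was at 21.1, 12.6 and 18.1 CPM, with -0.22 (-1.04 to 0.63). For Nfkbia and Tnfaip3 all 3 libraries lay within or near the CTX sort's level and well below that of the naive sort. Of the 9 genes, Ccrl2 and Il1b were lower in D7 CTX marrow by more than counting error. Ccrl2 was at 73.8, 113 and 37.2 CPM with a log2 ratio of -0.99 (-1.48 to -0.50), and Il1b, the cytokine interleukin-1 beta, at 49.8, 129 and 32.8 CPM with -0.60 (-1.16 to -0.04).

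For the summed list, D7 CTX over naive was 0.04 (-0.04 to 0.12) in whole marrow against -1.37 (-1.39 to -1.35) in the sorts. Whole marrow compared 2037 genes, of which 20 (0.982%) were at least 1 log2 unit higher and 8 (0.393%) at least 1 lower in D7 CTX. Of the 45 genes lower in the sorts, 8 had enough UMIs for this comparison, and 1 of the 8 was at least 1 log2 unit lower there. That gene was Igkc, whose UMIs in naive members came almost wholly from 1 cell. The median of the 8 was -0.04 in whole marrow and -2.02 in the sorts. Of the 6 outside the immunoglobulin genes none was lower by 1 log2 unit, and their whole marrow median was 0.26.

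**Figure D4:**
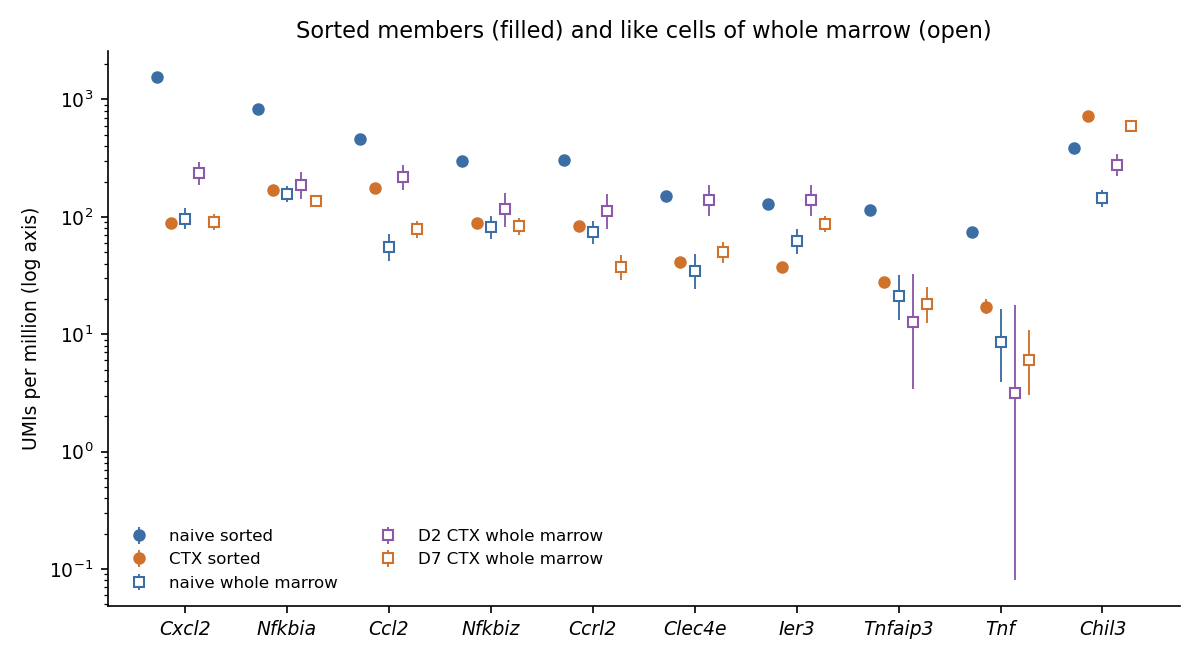
Level in CPM (y axis, log scale) of 10 genes in sorted members (filled circles) and like cells of whole marrow (open squares), 1 library a point, with exact 95% Poisson intervals. The naive sorted library is the highest of the 5 for each gene but Ier3 and Chil3, with Cxcl2 at 1562 CPM against 236 CPM or less elsewhere.

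The bases before the start sites are shown for the 5 NF-kB targets with a match to the motif searched, whether lower by 1 log2 unit or not. The RefSeq promoter table (GRCm38.p6) was searched over the 250 bases upstream of each start for GGG, then any 2 bases, then TTTCC (GGGNN followed by TTTCC), on both strands. No other motif was searched. It was found in 464 of 32851 promoters (1.41%), or by gene in 447 of 27025 (1.65%) and in 76 of the 4282 genes compared that had a promoter (1.77%). Of the 27 listed genes, 22 had a promoter in the table and 5 held a match, and of the 9 lower genes 8 had a promoter and 3 a match: Nfkbia, Tnfaip3 and Cxcl2, the last with 2 matches whose windows overlap. The other 2 genes with a match, Nfkb2 and Rel, which encode NF-kB subunits, were not past the limit, at -0.37 and -0.45. Each line gives up to 20 bases on either side, on the strand of the gene, with the match in capitals.
Nfkbia, chr12:55492648-55492696, minus strand: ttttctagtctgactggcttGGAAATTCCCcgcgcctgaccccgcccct
Tnfaip3, chr10:19015411-19015442, minus strand: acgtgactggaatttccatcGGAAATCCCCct
Cxcl2, chr5:90903782-90903831, plus strand: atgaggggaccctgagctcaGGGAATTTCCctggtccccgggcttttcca
Cxcl2, chr5:90903801-90903850, plus strand: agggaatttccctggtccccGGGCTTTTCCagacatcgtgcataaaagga
Nfkb2, chr19:46304706-46304736, plus strand: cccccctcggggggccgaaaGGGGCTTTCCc
Nfkb2, chr19:46305685-46305734, plus strand: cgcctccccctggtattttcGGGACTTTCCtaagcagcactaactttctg
Rel, chr11:23771031-23771080, minus strand: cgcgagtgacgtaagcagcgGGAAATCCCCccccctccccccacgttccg
In Nfkbia, Tnfaip3 and Rel the match lies on the opposite strand, so the printed letters are its reverse complement. A match is a run of letters, and no binding was measured.

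Interferon-stimulated genes were a little lower in CTX members as a group, with none past 1 log2 unit. Of 35 compared, 33 lay below 0 and the median log2 ratio was -0.33. The list summed to 11347 CPM in naive and 9214 CPM in CTX members, a log2 ratio of -0.30 (-0.31 to -0.29). Oasl2 and Oas3, of the family that senses double-stranded RNA, were the lowest, at -0.99 and -0.98, and Rtp4 was at -0.94. Here whole marrow ran the same way. There the list summed to 12788, 15064 and 9607 CPM in naive, D2 CTX and D7 CTX like cells, and D7 CTX over naive was -0.41 (-0.45 to -0.38). Rtp4 was at 78.6, 173 and 30.7 CPM there, with a log2 ratio of -1.36 (-1.88 to -0.85).

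Immediate early genes, which are induced within minutes of a stimulus, were all below 0 in the sorts. Of 17 compared, 2 were lower by at least 1 log2 unit: Dusp2, a phosphatase of MAP kinases, at 65.1 and 21.4 CPM, and Egr1 at 101 and 39.5 CPM. The share over all genes compared was 0.838%, and the list's median log2 ratio was -0.47. Fos, the most abundant, was at 6453 CPM in naive and 4876 CPM in CTX members, and at 1255, 1752 and 1571 CPM in naive, D2 CTX and D7 CTX like cells of whole marrow. Both sorts thus stood above all 3 whole marrow libraries for Fos, and D7 CTX over naive was 0.32 (0.23 to 0.42) there, against the sorted direction.

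Smaller groups held 1 or 2 genes past the limit each, beside 0.838% of all genes compared. In the innate sensing list it was Clec4e (Mincle), a receptor for microbial glycolipids, at 150.3 and 41.5 CPM, 1 of 11 genes compared, and Cd14, the co-receptor for LPS, was at 236 and 118 CPM, just short of the limit at -0.99. In like cells of whole marrow D7 CTX over naive was 0.53 (-0.04 to 1.13) for Clec4e and 0.51 (0.12 to 0.92) for Cd14, so neither was lower there. In the lipid list, 2 of 11 were lower, among them Lpl (lipoprotein lipase) by -1.65. Lpl was also lower in D7 CTX like cells of whole marrow, at 60.4, 25.2 and 8.76 CPM over naive, D2 CTX and D7 CTX, a log2 ratio of -2.79 (-3.68 to -1.98). Hspa1a and Hspa1b, near-identical inducible heat shock genes between which counting is uncertain, were at 71.4 and 24.6 CPM and at 21.6 and 5.2 CPM, 2 of 8 heat shock genes compared. In the list on suppression and oxidative burst, 1 of 11 genes was past the limit, and the list's median was -0.07.

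Transcription factors of monocyte fate were lower in part, with none of 20 past 1 log2 unit. Nr4a1, needed for non-classical monocytes, was at 179 and 93.3 CPM, and Klf2 at 1770.4 and 1203 CPM. Klf2 went the other way in whole marrow, by 0.94 (0.74 to 1.14) in D7 CTX over naive like cells. The late maturation list as a whole had a median of -0.13, and 10 of its 14 genes lay below 0.

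Granule genes outside the rule were level as a list, with none of 11 past 1 log2 unit, 5 below 0 and a median of 0.03. Chil3 had the highest ratio among them, and Cd177 the lowest at -0.56. Chil3, a chitinase-like protein of myeloid cells, was at 387 CPM (375 to 399) in naive and 729.7 CPM (714 to 746) in CTX members. Its log2 ratio was 0.91 (0.86 to 0.97) and so short of 1. Chil3 was seen in 40.1% of naive and 52.7% of CTX members at 3000 UMIs, and in 11.8% and 13.1% of azurophil-high cells. In like cells of whole marrow, over naive, D2 CTX and D7 CTX, it was at 144, 277 and 599 CPM, higher at D7 CTX by 2.06 (1.81 to 2.31). Specific granule-rich cells of the sorts held 3181 and 1548 CPM of Chil3, and their part in the members' value was not tested.

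Hist1h1b, a linker histone of S phase, was 1 of the 2 genes past 1 log2 unit, at 16.1 and 38.9 CPM with a log2 ratio of 1.22. Histone genes, grouped by symbol after their values were seen, went both ways: of 9 compared, 7 lay above 0 and 2 below, with 1 past the limit in each direction. Hist1h4d, Hist1h1d and Hist1h2bc lay at 0.85, 0.78 and 0.77, while Hist2h2aa1, which has a near-identical copy, was lower at 30.7 and 14 CPM, by -1.08. The S phase list itself had a median of 0.00 and the G2/M list 0.17, with Ube2c, a mitotic ubiquitin-conjugating enzyme, highest at 0.63. The other gene past the limit was BC100530, a stefin A gene of neutrophils with near-identical paralogs. It had 9 UMIs in 3 naive cells and 293 UMIs in 10 CTX cells, of which 5 cells held 98.3%, so a few cells set its ratio of 3.84. Without the 5 highest cells of each gene, 1 gene was past the limit.

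S100a8 and S100a9, the calprotectin genes of neutrophils and early monocytes, were higher in CTX members by 0.46 and 0.65. S100a9 was at 662 CPM in naive and 1040.2 CPM in CTX members, and 5 cells held 45.6% of its naive and 39.4% of its CTX UMIs. Without thinning, an S100a9 UMI was seen in 22.1% of naive and 46.2% of CTX members. All 8 genes compared of the S100 family lay above 0, but their median of 0.06 was near the 0.04 over all genes compared. A rise of the family as a whole is therefore not read from this count. Members with at least 5% of UMIs from S100a8 and S100a9 numbered 9 in the naive and 12 in the CTX sort.

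Immunoglobulin genes were lower in CTX members, for Igkc and Ighm mainly through 1 cell each. Igkc was at 1793 CPM in naive and 14.9 CPM in CTX members, but 1 naive cell held 18236 of its 18482 UMIs. For Ighm, 1 naive cell held 7249 of 9050 UMIs. Igkc UMIs were nonetheless seen in 189 naive members, or 16.5%, and in 6.23% of CTX members. Igha, too low to be compared, had 101 UMIs spread over 89 naive members and none in CTX members. Leaving out the members rich in S100, immunoglobulin or hemoglobin genes, 11 naive and 14 CTX cells, changed the count of lower genes from 45 to 47.

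Nme2, a nucleoside diphosphate kinase that shares reads with near-identical transcripts, was lower by -2.15, so its value is uncertain. Ribosomal protein genes as a group had a median of 0.07 over 81 genes, from -0.84 for Rpl36al to 0.59 for Rps2.

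Most other groups were level between the sorts. Oxidative phosphorylation had a median of 0.01 over 73 genes, mitochondrially encoded genes 0.05 over 12 and glycolysis 0.06 over 19, with none past 1 log2 unit. Class I presentation had 17 of 17 genes below 0, but with a median of only -0.13, against 0.04 over all genes compared. Fc receptors, the Ms4a family and adhesion genes had medians of -0.12, 0.10 and -0.02. The p53 target list, of interest after an alkylating drug, had a median of -0.14, and its lowest gene Cdkn1a, the p21 cell cycle inhibitor, was lower at 153 and 80.0 CPM. Cdkn1a was also lower in D7 CTX than in naive like cells of whole marrow, by -0.89 (-1.37 to -0.40), and stood highest in D2 CTX at 362 CPM.

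Azurophil-low monocytes were not uniform among themselves, and were described here by their Apoe level. Members were parted into those with Apoe at 0.1% of UMIs or more and those with no Apoe UMI, a split chosen after the values were seen. Apoe-rich cells numbered 358 in the naive sort, 31.2% (28.5 to 34) of members, and 334 in the CTX sort, 24.5% (22.2 to 26.9). Apoe-free cells numbered 450, or 39.2%, and 604, or 44.3%. Median depth was 8508 and 9704 UMIs in the naive parts and 7912 and 8694 UMIs in the CTX parts, so the richer cells were not the deeper ones. Of 4105 genes compared in both sorts, 15 (0.365%) were at least 1 log2 unit higher and 21 (0.512%) at least 1 lower in Apoe-rich cells in both.

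No list held more than 1 of the 15 genes higher with Apoe. They included Fcgr1, the high-affinity IgG receptor, at 116 CPM in Apoe-rich and 46.2 CPM in Apoe-free naive members, and at 79.7 and 33.7 CPM in the CTX sort. Cd74, the class II invariant chain, was at 89.2 against 33.3 CPM and at 82 against 30.5 CPM. The ratios in the sorts were 1.31 and 1.22 for Fcgr1 and 1.39 and 1.40 for Cd74. Genes had to be past 1 log2 unit in both sorts to be listed, so likeness was in part set by the choice. Gngt2, a G protein subunit, had the highest naive ratio, 2.52, with 1.61 in the CTX sort.

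Of the 6 G2/M genes compared, 2 were lower with Apoe past 1 log2 unit in both sorts, as were 3 of 8 S100 genes. Over all genes compared the share was 0.512%. Stmn1, a tubulin-binding protein of dividing cells, was at 4.44 CPM in Apoe-rich against 67.7 CPM in Apoe-free naive members, and at 12.3 against 61.1 CPM in the CTX sort. Ccnb2, a mitotic cyclin, was at 4.1 against 51.5 CPM and at 8.05 against 52.6 CPM. Lgals1, a galectin, was at 374 against 1015 CPM and at 443 against 1079 CPM. The 21 lower genes include Elane, whose UMIs the rule used, so nothing is read from it. Of 72 oxidative phosphorylation genes, 66 lay below 0 in both sorts, with medians of -0.36 and -0.26. The share of all genes compared that lay below 0 in both sorts is not given here.

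**Figure D5:**
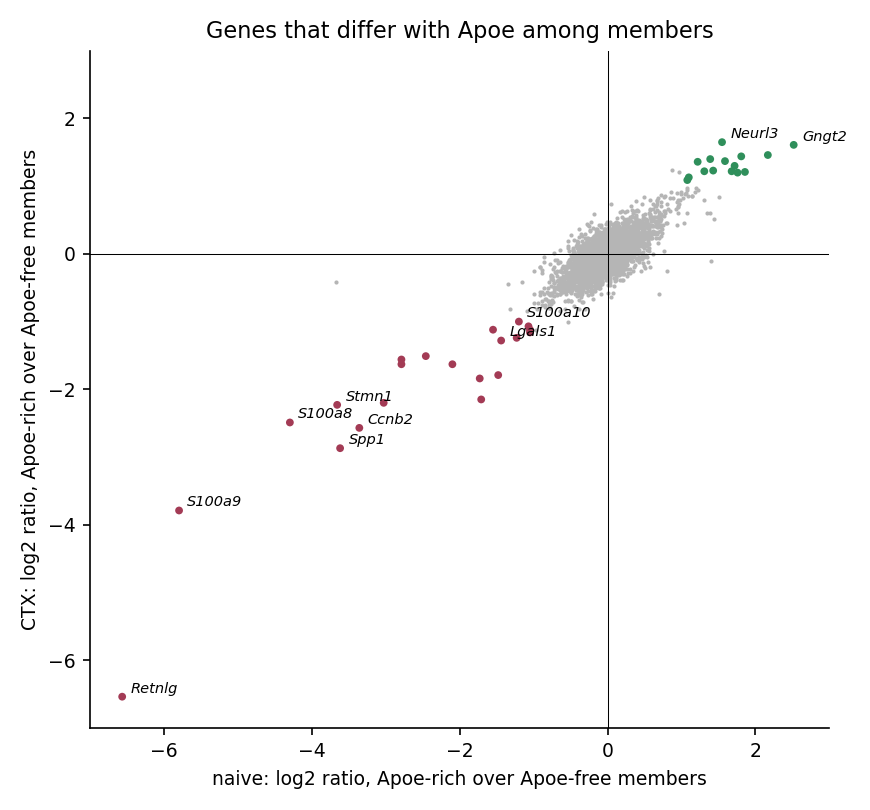
Log2 ratio of each of 4105 genes, Apoe-rich over Apoe-free members, in the naive sort (x axis) and the CTX sort (y axis). The 15 genes at least 1 log2 unit higher in both (green) and the 21 at least 1 lower in both (red) are marked. By naive ratio they run from Retnlg at -6.57 and -6.54 to Gngt2 at 2.52 and 1.61.

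Retnlg and S100a9 had the lowest ratios in both sorts, followed by S100a8 in the naive sort and by Spp1 and Ccnb2 in the CTX sort. The members rich in S100 or immunoglobulin genes included 11 Apoe-free cells in each sort and no Apoe-rich cell. Without them Retnlg was level, at 0.26 and -0.05, while S100a8 stayed lower at -3.29 and -1.44. The genes past 1 log2 unit in both sorts were then 14 higher and 19 lower, all of them shared with those above.

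The difference between the sorts was present in both parts of the members. Cxcl2 was lower in CTX by -4.49 (-4.69 to -4.30) in Apoe-rich and by -4.07 (-4.22 to -3.92) in Apoe-free cells. Nfkbia was lower by -2.29 (-2.43 to -2.16) and -2.15 (-2.26 to -2.03). The medians of whole lists lay further apart. The NF-kB list had -1.25 in Apoe-rich and -0.70 in Apoe-free cells, and the chemokine list -0.99 and -0.45. Chil3 was higher by 1.45 (1.34 to 1.57) in Apoe-rich cells, from 306 to 839.7 CPM, and by 0.82 (0.74 to 0.91) in Apoe-free cells, from 400.1 to 708 CPM. Cx3cr1 went opposite ways, with -0.37 (-0.58 to -0.17) in Apoe-rich and 0.31 (0.07 to 0.55) in Apoe-free cells. These parts share their libraries and the difference between them was not tested.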

How the data were processed

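The deposited matrices held UMI counts per gene and cell, made by the authors with Cell Ranger 3.1 (per the file headers). The submitters' processing notes also name the mm10 build and Seurat 5.0. Counts were used as deposited. They were summed over the members of each library and expressed per 1000000 UMIs (CPM). A log2 ratio was taken with a pseudocount of 1 CPM for genes with at least 200 UMIs over both groups and 20 CPM in 1 of them, and 1 log2 unit was the limit used to call a gene. Intervals of 95% were Clopper-Pearson for shares, Poisson for levels and conditional binomial for ratios, the last without pseudocount. With 1 library per condition no test was run. A test over cells was not used, since cells are not replicates. Where cells with a UMI were compared, each cell was thinned at random to 3000 UMIs and shallower cells were left out. The reference strain differs from BALB/c, which can lower counts of polymorphic genes. Doublets were kept in the main values, and an alternative left out those with the highest Scrublet scores.

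Named genes were the 3 markers, the 12 highest and 12 lowest ratios outside immunoglobulin, sex-linked, rule and predicted genes, the 4 largest changes and the most abundant gene in each of 29 lists, and the 10 genes highest in members over other sorted cells. Some genes that the rule names are not reported here. A gene named outside this rule was chosen after its values were seen. The members and lists were chosen with earlier results of these data known. Scripts ran on Python 3.11.15 with scipy 1.17.1 and scanpy 1.11.5 and were tested on simulated data.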

Additional observations from a re-analysis of the deposited data

Results flagged for a closer look

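Some results went opposite ways in the sorted monocytes and in like cells of whole marrow, each past counting error in both, and with 1 library per condition the difference was not tested. Immediate early genes summed to a log2 ratio of -0.41 in the sorts and 0.41 in D7 CTX over naive marrow. Ier3 was at 0.49 in whole marrow against -1.78 in the sorts, and Ccl2 at 0.49 against -1.40. A pair of genes named after their values were seen did the same: Marcksl1 at 1.44 against -1.64, and Gadd45a at 1.0 against -1.09. All are ratios of counts, without the pseudocount.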

How the results depend on the processing

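No paired analysis was possible because each condition had 1 library. The ratio of member shares, -0.19, stayed within its counting interval in all 11 alternatives. The count of lower genes, 45, stayed within 1.5 times in 16 of 18 alternatives, and was 103 with no filter on low genes and 23 with at least 50 CPM in 1 library, where more and fewer genes were compared. The count of higher genes, 2, is small and moved more often: it was 32 with no filter and 0 at 50 CPM, 5 when S phase and G2/M genes had to be under 0.2% of UMIs as well, and 1 with a specific granule limit of 0.2%, without doublets, and without the deepest 5% of members. In a pair of alternatives chosen after seeing the data, it was 1 without the members rich in genes of another cell type and 1 when each gene lost its 5 highest cells. The cause was not tested. The 20 named genes at least 1 log2 unit lower stayed at or below -1 in all 350 values taken under alternatives, and the NF-kB median ranged from -1.13 to -0.86. In whole marrow, where like cells were few, the median ratio of the NF-kB list was -0.08 under the limits used, beside the ratio of sums given above, -0.20 with at least 1 UMI of Ly6c2 and 0.43 with at least 10. Shares of cells with a UMI moved with the thinning depth for every marker, and depth in whole marrow limits the comparison to 2037 genes.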

Other observations

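Markers of plasmacytoid dendritic cells were seen in a handful of CTX members. Siglech had 84 UMIs in 9 CTX cells and 9 UMIs in 1 naive cell, and the list summed to 16.1 CPM in CTX and 1.45 CPM in naive members, with Cd300c at 0 in both. Among naive sorted cells, the 28 class II-rich cells outside the members held Igkc at 104417 CPM, against 58.4 CPM in the 9 such CTX cells.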
